A study of Mus musculus with 10 samples.

Results

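The genes described here are the translation initiation factors of the mouse. They were taken as all genes whose symbol in the platform annotation starts with Eif and a digit, except the X-linked Eif2s3x and the Y-linked Eif2s3y. This gave 45 of the 18193 genes measured. Each gene was read from 1 probe set, the one with the highest mean over the 10 arrays, so the probe sets were chosen by mean intensity over all groups, and no comparison of groups entered the choice. A total of 128 probe sets were listed for exactly 1 of these genes, and 35 of the 45 genes had more than 1. Eif5a2, a second gene of factor eIF5A, lay under the filter on dim genes, with intensities of 7.80 to 10.9 on the 10 arrays. The other 44 genes were tested among 13644. Factors without a probe set listed for 1 gene were not analysed here.

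Translation starts when eIF2, loaded with GTP and the initiator tRNA, joins the small ribosomal subunit together with eIF1A, eIF3 and eIF5. The cap-binding protein eIF4E, the scaffold eIF4G and the RNA helicase eIF4A bring this complex to the capped end of the mRNA. eIF2 leaves with GDP and is recharged by the exchange factor eIF2B, a step that kinases of the eIF2 alpha subunit block under stress. The mTORC1 kinase controls eIF4E through inhibitors called 4E-binding proteins, which compete with eIF4G. In the intestine, where crypt cells divide continually, protein synthesis is sustained at a high rate.

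RNA was measured on oligonucleotide arrays, in B6xBALB F2 mice. The 8 CF knockouts, which lack the chloride channel gene Cftr, carried the code H (5 mice) or L (3 mice), and both CF controls carried the code D; none of these letters is spelled out in the labels. Codes also held M or F, 6 and 4 mice, and a number in an upper range (5 knockouts) or a lower range (3 knockouts and both controls). Age, and how Cftr was disrupted, were not given in the sources used here, and whatever the code D stands for cannot be told apart from the genotype.

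Cftr had a mean intensity of 28.1 ± 6.63 in knockouts (SD, n = 8) and 134 ± 4.47 in controls (SD, n = 2), with a log2 difference of -1.91 and a limma adjusted p of 0.00528. The labels name whole right lung, but 10 of 14 measured markers of small intestine epithelium ranked in the brightest 5% of genes. Their median was at the 99 percentile, and those of goblet and Paneth cell markers were at 99.8. Of 7 measured markers of alveolar type 2 cells, 2 were in the brightest 5%, and the median was at the 85.5 percentile. For alveolar type 1 cells the median was at 59.6, with 0 of 6 in the brightest 5%. Knockout H replicates 2 and 5 were the highest in lung transcripts. The letters M and F went with Eif2s3y (log2 difference of 2.64, M minus F, limma adjusted p of 0.000332), which is the reason it and its X-linked partner were set aside. In bulk RNA, fewer cells of a type and less RNA per cell cannot be told apart.

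Initiation factor transcripts were higher in knockouts for 4 genes and lower for none at an adjusted p under 0.05. The genes were Eif2s2, Eif2b1, Eif4e and Eif3e, which encode parts of eIF2, eIF2B, the cap-binding protein and eIF3. These were 4 of 44 members (9.09%), against 1.52 percent of all 13644 genes called higher, 2.79 percent called lower and 4.31 percent called in either direction. At an unadjusted p under 0.05, 13 members (29.5%) were higher, against 8.66 percent of all genes, and 2 members (4.55%) were lower, against 10.8 percent. The median log2 difference was 0.10 over the members and -0.0047 over all genes, and 31 of 44 members were above 0 (48.7 percent of all genes). Differences were small: 25 members were within 0.2 and 43 within 0.5 on the log2 scale.

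These values come from limma on log2(intensity + 16), in a model that also holds the letter and the number range, and p was adjusted over the 13644 genes by the Benjamini-Hochberg method. Both controls were in the lower range, so each difference rests on 3 knockouts and 2 controls there. Without knockout H replicate 4, knockout L replicate 3, control replicate 1 or control replicate 2, no member passed, and 1 passed without knockout H replicate 5. Over all genes, 24, 55, 0, 9 and 68 were then called higher, in that order of arrays. Leaving out knockout L replicate 1, knockout L replicate 2 or knockout H replicate 1 left 2 members.

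**Figure D1:**
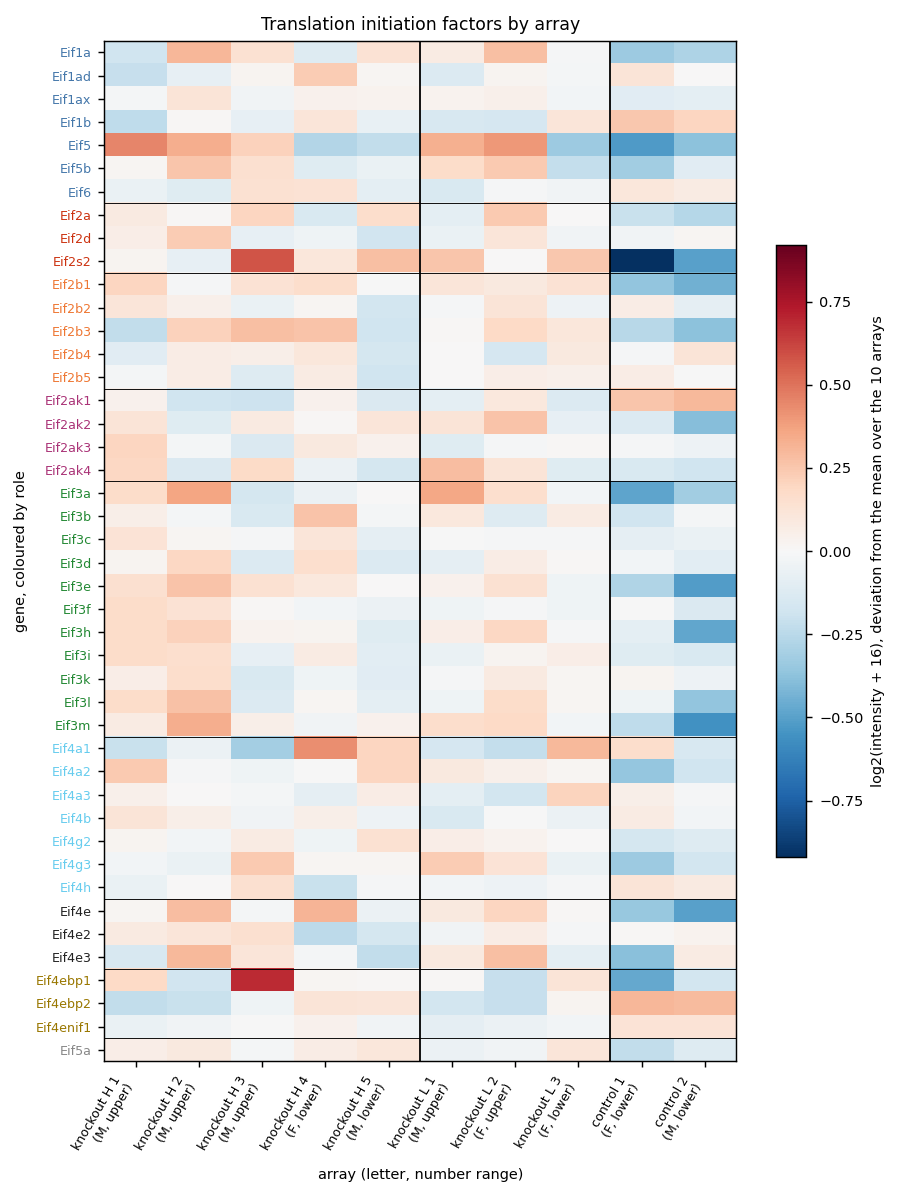
Deviation of log2(intensity + 16) from the mean over the 10 arrays for the 44 tested genes (rows, ordered and coloured by role), with knockout H, knockout L and control arrays from left to right (columns, with letter and number range). Eif2s2, Eif2b1, Eif4e and Eif3e are lowest in both control columns, and Eif5 separates the upper from the lower number range among the knockouts.

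**Figure D2:**
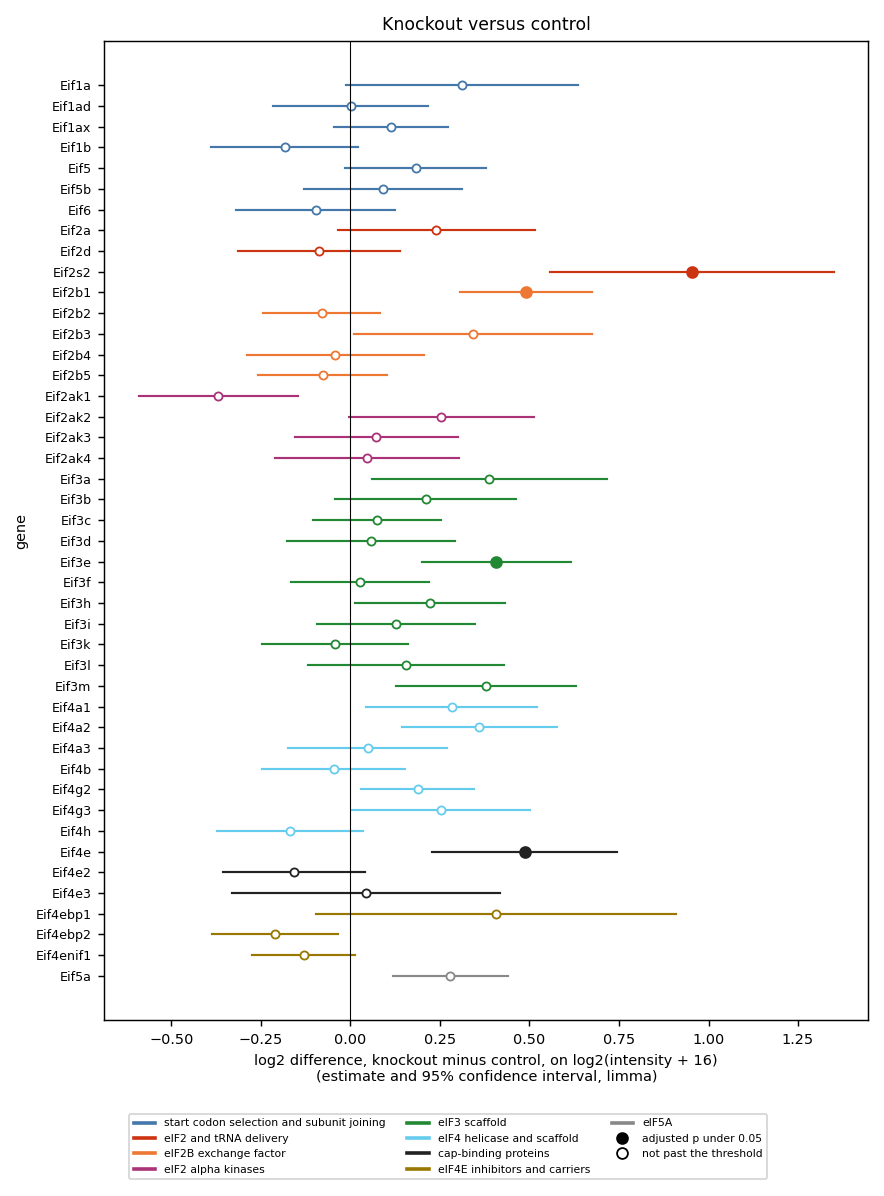
Log2 difference, knockout minus control, of the 44 tested genes with its 95% confidence interval from limma, coloured by role, with filled circles for an adjusted p under 0.05. The 4 filled circles are at 0.41 to 0.95, and the lowest estimate is that of Eif2ak1 at -0.37.

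The stretches of 250 bases before the annotated start of 3 of the 4 genes are shown because these genes were called higher. They are from RefSeq on GRCm38.p6, written 5′ to 3′ on the strand of the gene, with 4 motifs in capitals where a match was found on either strand. The capitals mark CACGTG (the E-box), then GGGCGG (the GC box), then CCAAT (the CCAAT box) and also GGAAGT (a core bound by ETS proteins). They lie at chr2:154892907-154893156 (minus strand) for Eif2s2, chr5:124579132-124579381 (minus) for Eif2b1 and chr3:138527018-138527267 (plus, the more downstream annotated start) for Eif4e.
Eif2s2: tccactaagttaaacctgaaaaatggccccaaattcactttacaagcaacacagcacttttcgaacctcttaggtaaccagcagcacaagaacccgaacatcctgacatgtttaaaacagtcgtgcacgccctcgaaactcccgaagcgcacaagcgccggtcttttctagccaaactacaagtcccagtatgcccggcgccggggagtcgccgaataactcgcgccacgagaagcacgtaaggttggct
Eif2b1: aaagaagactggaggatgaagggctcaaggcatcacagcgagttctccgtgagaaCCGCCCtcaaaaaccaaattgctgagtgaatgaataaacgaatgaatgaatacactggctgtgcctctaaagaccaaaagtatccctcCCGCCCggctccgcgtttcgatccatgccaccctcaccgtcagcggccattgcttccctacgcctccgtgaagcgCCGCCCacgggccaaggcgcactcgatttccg
Eif4e: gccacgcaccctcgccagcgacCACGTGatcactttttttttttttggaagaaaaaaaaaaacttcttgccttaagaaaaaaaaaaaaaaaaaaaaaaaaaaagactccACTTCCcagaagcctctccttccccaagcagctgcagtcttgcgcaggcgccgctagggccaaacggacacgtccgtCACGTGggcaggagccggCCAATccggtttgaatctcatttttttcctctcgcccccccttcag
The Eif4e stretch holds CACGTG 228 and 64 bases before the more downstream start. The RefSeq window of 300 bases at the more upstream annotated start of Eif4e holds none of the 4 motifs. The Eif2b1 stretch holds GGGCGG 3 times, on the opposite strand. None of the 4 motifs is in the Eif2s2 stretch. These are matches of letters, not binding sites.

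RefSeq windows of 300 bases, 250 before and 50 after the start, were given for 36 of the member genes (49 windows, which overlap where a gene has several starts). CACGTG, on either strand, was in 11 of the 49 (22.4%), against 7.15% of all 32851 windows, and came from 9 genes. GGGCGG was in 34 (69.4%), against 35.7%. GGAAGT was in 23 (46.9%), against 23.8%. CCAAT was in 14 (28.6%), against 37.4%. TGATGNAA was in none of the members' windows, against 3.97% of all windows.

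Eif2s2 encodes the beta subunit of eIF2, which contacts eIF5 and eIF2B. Its intensity was 2176, 2030, 3197, 2296 and 2589 in knockout H, 2559, 2147 and 2540 in knockout L, and 1122 and 1510 in controls. All 8 knockouts were above both controls. The means were 2442 ± 371 in knockouts (SD, n = 8) and 1316 ± 274 in controls (SD, n = 2), with a log2 difference of 0.95 (SE 0.18), 1.94-fold, and a limma adjusted p of 0.023. The call was lost without knockout H replicate 4 or 5, knockout L replicate 3 or either control, at 0.80 to 1.08 on the log2 scale and adjusted p of 0.0621 to 0.255. It was also lost with the mean of all probe sets of each gene, at 0.68 and a limma adjusted p of 0.0848. Eif2a and Eif2d, described as carriers of tRNA that act apart from eIF2, had differences of 0.24 and -0.09 and did not pass.

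All 6 probe sets of Eif2s2 gave positive differences. In a limma fit over 33777 probe sets, where 1.15 percent were called higher and 1.43 percent lower, the brightest gave an adjusted p of 0.0312. The second brightest averaged 1682 ± 320 in knockouts and 872 ± 200 in controls (SD, n = 8 and 2), with a log2 difference of 1.06 and an adjusted p of 0.0312. The other 4 were between 0.41 and 0.61, with adjusted p of 0.236 to 0.309.

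Eif2b1 encodes the alpha subunit of eIF2B, part of its regulatory core, which senses phosphorylated eIF2. Its intensity was 208, 177, 198, 201 and 178 in knockout H, 194, 191 and 198 in knockout L, and 135 and 127 in controls. The 8 knockouts were all above both controls, and each group was narrow. The log2 difference was 0.49 (SE 0.081), with a limma adjusted p of 0.0175, the lowest among the members. The call was lost without knockout H replicate 4, knockout L replicate 3 or either control, at 0.47 to 0.50 and adjusted p of 0.0529 to 0.171. Only 1 probe set was listed for it.

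The other 4 subunits of eIF2B did not pass. Eif2b3, of the catalytic part, averaged 58.6 ± 9.77 in knockouts and 40.3 ± 3.38 in controls (SD, n = 8 and 2), with a difference of 0.34 and a limma adjusted p of 0.245. Eif2b2, Eif2b4 and Eif2b5 had differences of -0.08, -0.04 and -0.08.

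Of the 4 eIF2 alpha kinases, none passed. Eif2ak1, the heme-regulated kinase, had 176, 149, 147, 176 and 154 in knockout H, 159, 184 and 155 in knockout L, and 207 and 214 in controls. All 8 knockouts were below both controls, with a log2 difference of -0.37 (SE 0.098) and a limma adjusted p of 0.0716. Eif2ak2, the kinase activated by double-stranded RNA, had a difference of 0.25 (adjusted p of 0.265, limma), with dim values of 43.0 ± 4.93 in knockouts and 31.3 ± 6.23 in controls (SD, n = 8 and 2). Eif2ak3, the kinase of endoplasmic reticulum stress, and Eif2ak4, the kinase of amino acid shortage, had differences of 0.07 and 0.05.

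The scaffold eIF3 is a large complex that holds the initiation factors on the small subunit. Of its 11 tested subunits 1 passed, 10 were above 0 and the median difference was 0.16. Eif3e had 831, 901, 825, 800 and 751 in knockout H, 768, 825 and 728 in knockout L, and 613 and 519 in controls. All 8 knockouts were above both controls, with a log2 difference of 0.41 (SE 0.092) and a limma adjusted p of 0.0428. Its call was lost when any 1 array other than knockout H replicate 2 was left out, at 0.30 to 0.53 and adjusted p of 0.0566 to 0.295. The other probe sets of Eif3e did not follow it: the second brightest had a difference of -0.10 (adjusted p of 0.747, limma), the next one of 0.08 and the dimmest one of 0.03.

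Eif3a encodes the subunit on which eIF3 assembles. Its intensity was 783, 899, 619, 669 and 700 in knockout H, 897, 777 and 683 in knockout L, and 494 and 554 in controls. All knockouts were above both controls, but the brightest probe set did not pass, with a log2 difference of 0.39 (SE 0.15) and a limma adjusted p of 0.181. Of its other probe sets 2 passed in the fit over all probe sets. For the second brightest the difference was 0.51 (adjusted p of 0.0306, limma), with 419 ± 33.8 in knockouts and 300.3 ± 0.860 in controls (SD, n = 8 and 2). For the dimmest it was 0.59 (adjusted p of 0.0467, limma). In each of the 4 probe sets of Eif3a all 8 knockouts were above both controls.

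Eif3m, a subunit of the module that also holds Eif3h, had 220, 266, 216, 202 and 214 in knockout H, 235, 239 and 204 in knockout L, and 174 and 136 in controls. The groups did not overlap, with a difference of 0.38 (adjusted p of 0.0962, limma). Eif3h itself was at 0.22 (adjusted p of 0.232, limma). The remaining 7 subunits, which include Eif3b and Eif3i with their WD40 repeats, had differences of -0.04 to 0.21.

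**Figure D3:**
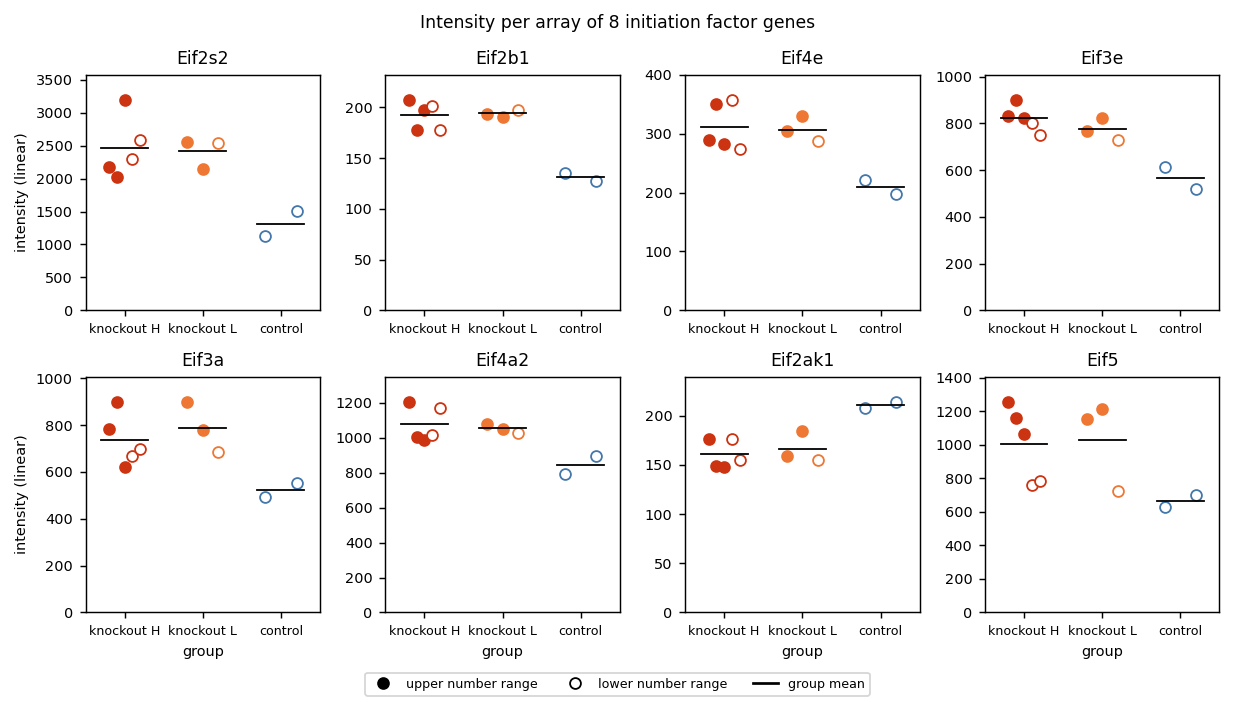
Linear intensity per array (points) of 8 genes in knockout H, knockout L and control arrays, with filled points for the upper and open points for the lower number range and a bar at the group mean. All knockout points are above both control points in every panel except that of Eif2ak1, where all are below, and the open knockout points of Eif5 are close to the controls.

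Eif4e, the protein that binds the mRNA cap, had 289, 351, 282, 358 and 274 in knockout H, 304, 329 and 288 in knockout L, and 221 and 197 in controls. All 8 knockouts were above both controls. The log2 difference was 0.49 (SE 0.11), with a limma adjusted p of 0.0486, just under the threshold, and the call was lost when any 1 array other than knockout H replicate 2 was left out, at 0.40 to 0.55 and adjusted p of 0.0548 to 0.29. In the fit over all probe sets its adjusted p was 0.058, and other probe sets gave 0.30, 0.22 and -0.16, in order of brightness, of which the last 2 were near the array median. The related cap-binding genes Eif4e2 and Eif4e3 had differences of -0.16 and 0.04 and did not pass.

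The inhibitors of eIF4E did not pass either. Eif4ebp1, a 4E-binding protein under mTORC1, had 256, 196, 368, 226 and 225 in knockout H, 225, 190 and 243 in knockout L, and 156 and 197 in controls. The groups overlapped, and the difference was 0.41 (SE 0.22, adjusted p of 0.368, limma). Eif4ebp2, a second such inhibitor, had 194, 197, 224, 252 and 249 in knockout H, 203, 197 and 234 in knockout L, and 289 and 285 in controls. All knockouts were below both controls, with a difference of -0.21 (adjusted p of 0.174, limma). Eif4enif1, which carries eIF4E into the nucleus, was at -0.13, again with all knockouts below both controls.

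Among the helicases and scaffolds no gene of 7 passed, and 5 were above 0. Eif4a2, a form of the helicase, had 1205, 1007, 987, 1015 and 1169 in knockout H, 1080, 1051 and 1028 in knockout L, and 792 and 893 in controls. The groups did not overlap, with a difference of 0.36 (SE 0.096, adjusted p of 0.0716, limma). Eif4g2, a scaffold used without the cap, was at 0.19 and Eif4g3, a form of eIF4G, at 0.25. Eif4a1, the main helicase, was at 0.28 (adjusted p of 0.177, limma) with the covariates and at -0.01 without them, and its values overlapped between knockouts and controls. Eif4b and Eif4h, partners of the helicase, were at -0.05 and -0.17, and Eif4a3, of the exon junction complex, at 0.05.

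Eif5a, whose protein carries the modified residue hypusine and also acts in elongation, had 1827, 1865, 1729, 1837 and 1881 in knockout H, 1682, 1711 and 1894 in knockout L, and 1490 and 1609 in controls. All knockouts were above both controls, with a difference of 0.28 (SE 0.071) and a limma adjusted p of 0.0627. In the group of start codon selection and subunit joining no gene of 7 passed, and differences were -0.18 (Eif1b) to 0.31 (Eif1a).

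Eif5, the GTPase-activating protein of eIF2, differed by probe set. The brightest had a difference of 0.18 (adjusted p of 0.297, limma). For the third in brightness it was 0.64 (SE 0.073) with an adjusted p of 0.00864 in the limma fit over all probe sets, with 400 ± 25.8 in knockouts and 245 ± 8.53 in controls (SD, n = 8 and 2). In each of the 5 probe sets all 8 knockouts were above both controls. Among all members, 76 further probe sets of 33 members were fitted, of which 51 had the sign of the brightest one. Of the 76, 4 passed, all of them higher, against 1.15 percent of all probe sets called higher and 1.43 percent called lower.

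**Figure D4:**
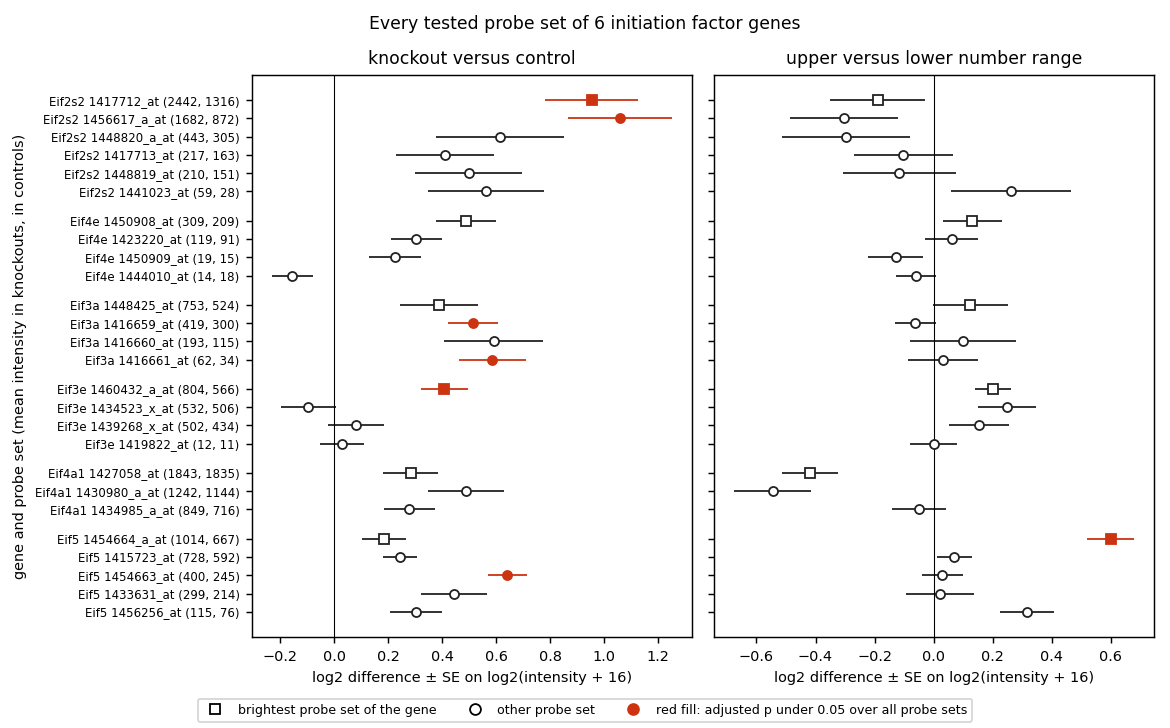
Log2 difference with its SE for each tested probe set of 6 genes, knockout minus control (left) and upper minus lower number range among knockouts (right), with squares for the brightest probe set, circles for others and red fill for an adjusted p under 0.05 over 33777 probe sets; mean intensities in knockouts and in controls stand beside each name. All probe sets of Eif2s2, Eif3a and Eif5 are above 0 on the left, while 1 of Eif3e and 1 of Eif4e are below.

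Counted without a model, 17 members (38.6%) had all 8 knockouts above both controls, against 10 percent of all genes. Below both controls were 4 members (9.09%), Eif1b, Eif2ak1, Eif4ebp2 and Eif4enif1, against 11.7 percent. Within the lower range alone, 20 members (45.5%) had all 3 knockouts above both controls, against 19.1 percent, and 7 (15.9%) had them below, against 20.1 percent. The mean deviation over the 44 genes was -0.03 to 0.08 on the knockout arrays and -0.12 and -0.14 on the control arrays, on the log2 scale.

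Some markers of other cells also differed between knockouts and controls. Among the lists given here, only the sums of Paneth cell and small intestine epithelium markers did not overlap between knockouts and controls. Of all genes, 1.52 percent were called higher and 2.79 percent lower. At an unadjusted p under 0.05 (limma) the shares were 8.66 percent and 10.8 percent. The summed intensity of 6 measured Paneth cell markers was 25002 to 33726 in knockouts and 18960 to 21167 in controls. Among these, 1 of 6, Pla2g2a, was called higher, 5 were above 0 and Lyz1 was below (-0.35). For 14 small intestine epithelium markers the sum was 27371 to 36532 in knockouts and 43047 to 45827 in controls, with 4 called lower. Of the 14, 10 were below 0 and 4 above, among them Apoa4 (0.65) and Fabp1 (0.22). For 11 markers of proliferating cells it was 2995 to 4252 in knockouts and 2631 to 3007 in controls, with 10 of 11 above 0 and none past the threshold (4 at an unadjusted p under 0.05, limma). For 8 goblet cell markers the sum was 30202 to 36895 in knockouts and 33521 to 34309 in controls, with 1 called higher, Agr2 (0.65, adjusted p of 0.0432, limma), and 3 higher and 1 lower at an unadjusted p under 0.05. All 9 tested T and NK cell markers were below 0, with a median of -0.65 and none past the threshold, adjusted or unadjusted (limma); their sum was 223 to 1460 in knockouts and 926 to 1062 in controls. No marker is listed at 0. The part of these shifts in the initiation factor differences was not tested. Without both arrays highest in lung transcripts, Eif2s2 was at 1.05 and Eif2b1 at 0.55, both past the threshold, while Eif4e and Eif3e did not pass.

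Knockout H was set against knockout L because the series concerns mice of variable weight. No member passed, and no gene of the 13644 did (0 percent). At an unadjusted p under 0.05, 2 members were higher, Eif3e (0.16, p of 0.0434, limma) and Eif4b (0.15, p of 0.0498, limma), and none lower, against 1.09 percent and 1.13 percent of all genes. Member differences were between -0.16 and 0.16, with 28 of 44 above 0 (50 percent of all genes). No member had all H arrays above or all below the L arrays, against 0.901 percent and 0.652 percent of all genes. M against F also gave no member past the threshold, where 0.0220 percent of all genes passed, 0.0147 percent higher and 0.00733 percent lower. Eif3h (-0.22, p of 0.0242, limma) and Eif2b2 (-0.16, p of 0.0474, limma) had an unadjusted p under 0.05, both lower in M, against 2.65 percent of all genes lower and 2.18 percent higher. The members had a median of -0.06, with 18 of 44 above 0 (47.1 percent of all genes), and none had the M arrays wholly above or below the F arrays (0.257 percent and 0.388 percent of all genes).

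Between the upper and the lower number range, the only member past the threshold was Eif5, which was higher in the upper range; 0.132 percent of all genes were called higher and 0.169 percent lower. Its knockout values were 1256, 1160, 1066, 1153 and 1212 in the upper range and 759, 782 and 725 in the lower range. The ranges did not overlap, with means of 1169 ± 71.5 in the upper range (SD, n = 5) and 755 ± 28.7 in the lower range (SD, n = 3), a log2 difference of 0.60 (SE 0.085) and a limma adjusted p of 0.0416. Leaving out any 1 array other than knockout H replicate 3 lost the call, at 0.54 to 0.63 and adjusted p of 0.0718 to 0.324. The dimmest probe set had a difference of 0.32 (adjusted p of 0.188, limma), and the third in brightness one of 0.03.

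Eif4a1 was on the other side: its knockout values were 1577, 1748, 1462, 1633 and 1556 in the upper range and 2447, 2090 and 2235 in the lower range. The ranges did not overlap, but the difference of -0.42 did not pass (adjusted p of 0.2, limma). Members wholly higher in the upper range were Eif3h, Eif3m, Eif5 and Eif5b, 4 of 44 (9.09%), against 5.24 percent of all genes, and those wholly lower were Eif4a1 and Eif4ebp2 (4.55%), against 5.78 percent. Subunits of eIF3 were above 0 in 10 of 11 cases, with a median of 0.12 and none past the threshold. At an unadjusted p under 0.05, 6 members (13.6%) were higher in the upper range and 2 (4.55%) lower, against 5.39 percent and 4.83 percent of all genes, and 30 of 44 were above 0 (48.6 percent of all genes). What the number ranges stand for is not given in the labels.

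Over the 8 knockouts, which share arrays and their normalization, Pearson correlations between members were described without a test. The 946 pairs of members had a median r of 0.03, and the 55 pairs within eIF3 one of 0.58, with 49 positive. The closest pair was Eif3k with Eif3l, at 0.96. Among the 8 knockout arrays, the mean log2 deviation over the eIF3 subunits was highest on knockout H replicate 2 (0.19). It was lowest on knockout H replicate 5 (-0.06). The part of single arrays and of the number range in these correlations was not tested. Eif5 ran against Eif4a1 at -0.91 and against Eif4ebp2 at -0.93, and all 3 of these genes separated the number ranges. The most negative pair, Eif2b3 with Eif4a2 at -0.974, held no gene that separated them.

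Other lists of protein synthesis were set beside the members in the same comparison of knockouts with controls. Of 28 ribosome biogenesis genes 26 were above 0 (48.7 percent of all genes), with a median of 0.24, and 4 were called higher and none lower. They were Npm1 (0.81, adjusted p of 0.0111, limma), the nucleolar chaperone nucleophosmin, Nop58 (0.66, adjusted p of 0.0348) and Gar1 (0.41, adjusted p of 0.0444), which guide rRNA modification, and Lyar (0.48, adjusted p of 0.0438), a nucleolar protein. Npm1 averaged 870 ± 53.1 in knockouts and 484 ± 65.0 in controls (SD, n = 8 and 2). At an unadjusted p under 0.05, 13 of the 28 were higher and none lower (limma), against 8.66 percent and 10.8 percent of all genes. For this list and those below, 1.52 percent of all genes were called higher and 2.79 percent lower.

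Of 18 poly(A)-binding proteins and cap-binding partners, 2 were called higher, Pabpc4 (0.41, adjusted p of 0.0328, limma) and Pabpc1 (0.40, adjusted p of 0.035, limma), and none lower. Abce1, which splits ribosomes after termination, was the only gene called among 9 of termination and recycling (0.55, adjusted p of 0.0273, limma). Farsb, a subunit of the phenylalanine tRNA synthetase, was the only one called among 21 cytosolic aminoacyl-tRNA synthetases (0.33, adjusted p of 0.0415, limma). Medians of these lists were 0.14, 0.20 and 0.15, in that order, against 0.10 over the initiation factors. Higher at an unadjusted p under 0.05 (limma) were 4, 5 and 4 genes, and none lower, against 8.66 percent and 10.8 percent of all genes. In the integrated stress response, the program downstream of eIF2 alpha phosphorylation, 1 of 21 passed, Trib3, which was lower (-0.38, adjusted p of 0.035, limma), and the median was 0.07. At an unadjusted p under 0.05, 7 of the 21 were higher and 3 lower, against 8.66 percent and 10.8 percent of all genes. Asns (0.98, adjusted p of 0.0681, limma), the asparagine synthetase, and Chac1 (0.61, adjusted p of 0.0589, limma), which degrades glutathione, did not pass. Slc3a2, which was lower (-0.63, adjusted p of 0.0566, limma), did not pass either. Asns, Chac1 and Slc3a2 were named after their values were seen.

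None passed among 12 elongation factors (median 0.13), 18 genes of the unfolded protein response (0.01), 23 of mTORC1 and growth signalling (0.02), 22 large (0.06) and 21 small (0.02) ribosomal protein genes. At an unadjusted p under 0.05, 4, 0, 2, 5 and 1 of these were higher and 0, 0, 2, 0 and 0 lower, in that order of lists (limma), against 8.66 percent and 10.8 percent of all genes. The 2 of 23 genes of mTORC1 and growth signalling and the 1 of 21 small ribosomal protein genes are near or under the share of all genes called higher. The ribosomal protein lists held 47 large and 32 small subunit genes, so the counts do not cover those left untested.

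**Figure D5:**
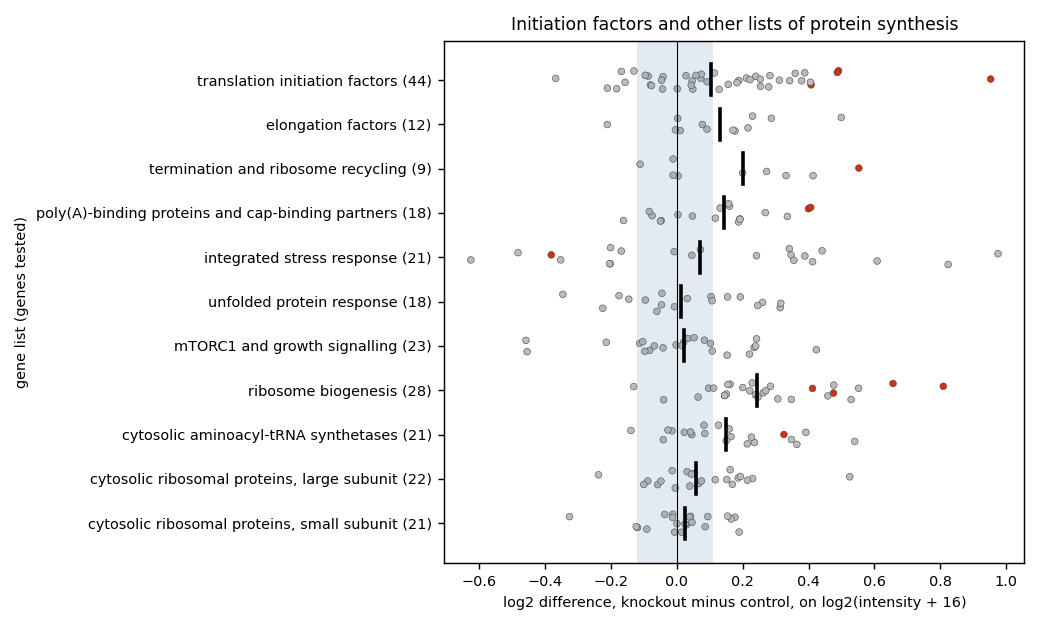
Log2 difference, knockout minus control, of each tested gene (points) in the initiation factors and 10 other lists, with red points for an adjusted p under 0.05 over all genes, a black bar at each list's median and a shaded band from the lower to the upper quartile of all 13644 genes. The median of ribosome biogenesis (0.24) is farthest from 0, and that of the initiation factors is 0.10. Termination and recycling (0.20), aminoacyl-tRNA synthetases (0.15), poly(A)-binding proteins and cap-binding partners (0.14) and elongation factors (0.13) also have medians above 0.10.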

How the data were processed

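Arrays of 10 mice were analysed. The values the authors deposited are linear intensities, 1 per probe set on each array; how they were summarized, background-corrected and normalized is not stated in the labels. Medians per array were 18.4 to 18.9 and 75th percentiles 58.8 to 63.0, so no further normalization was applied. The number of arrays, above all the 2 controls, limits the precision. Each title carries its own number, and on that basis the samples were taken as separate animals; the p-values cover the spread among these samples. No pair of arrays held identical values.

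The 64 control probe sets among 45101 were dropped. The platform annotation lists 1 symbol for 34945, several for 932 and none for 9160; 34741 symbols were updated through gene identifiers with RefSeq (GRCm38.p6). Per gene the probe set with the highest mean of log2(intensity + 16) was used, and genes at or under the 25th percentile (4.89) were left out. The added 16 understates differences of dim genes.

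limma 3.58.1 (lmFit, eBayes) in R 4.3.3 was fitted on all 10 arrays, with Benjamini-Hochberg adjustment at 0.05. Knockout versus control used number range and letter as covariates; the other comparisons came from a fit of 3 groups. The procedure was also run on simulated data of independent normal values. These held no difference between arrays other than a knockout shift, so that run does not bear on array or number range effects. Alternatives varied pseudocount, filter, covariates, normalization, probe set choice and arrays. Leaving out both arrays highest in lung transcripts and the fit over all probe sets were added after seeing the data. Members and lists were chosen with earlier results of these data known. Every member could be named. Of other genes, the targeted gene, check genes, markers and, per list, at most 4 past the threshold could be named. Asns, Chac1 and Slc3a2, which did not pass, are outside this rule. Plots used matplotlib 3.10.9.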

Additional observations from a re-analysis of the deposited data

Results flagged for a closer look

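Among the 5 knockout H arrays, 2 of 44 genes had a single array far from the other 4. Eif3m had an intensity of 266 in knockout H replicate 2, with the others at 202 to 220. Eif4g3 had 159 in knockout H replicate 3, with the others at 126 to 134. Chance gives about 1 such case in 20 groups.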

How the results depend on the processing

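With 2 controls, the count of members called higher in knockouts moved with the settings. It was 4 as reported, 2 with a pseudocount of 1, 7 without covariates, 7 with the letter alone, 2 with eBayes with trend and robust, 2 without both arrays highest in lung transcripts, 3 with the mean of all probe sets, 5 in the lower range alone, and 0 to 4 when 1 array was left out. With the mean of all probe sets Eif2s2 (0.68), Eif3e (0.10) and Eif4e (0.21) were lost and Eif3a (0.52) was gained. In the lower range alone Eif3e (0.40) was lost and Eif3a (0.39) and Eif4a2 (0.37) were gained. Only members with an unadjusted p under 0.05 in the reported fit (limma) were followed by name. The genes named for the mean of all probe sets therefore fall short of its count of 3. The count of members lower was 0 as reported, 2 without covariates and 1 with the letter alone. For the upper against the lower range, the 1 member higher became 0 with a pseudocount of 1, quantile normalization, the mean of all probe sets or without both lung-high arrays, 2 with the probe set of largest SD, and 0 to 1 when 1 array was left out; 1 member was lower without covariates. H against L and M against F stayed at 0 members in every setting run. The share of all genes called in each setting is not given beside the counts above. Their changes are therefore not a result about the members. Eif2b1 passed in 19 of 23 settings, Eif2s2 in 17, Eif3e and Eif4e in 8 each; none of the 4 changed sign. The signs turned for Eif4a1 in knockouts against controls without covariates (-0.0082) and for Eif4e2 between the ranges with the probe set of largest SD (-0.10). The cause was not tested. Eif2ak4 (12.7 to 23.6 over the 10 arrays) and Eif4a3 (10.5 to 18.3) lie near the filter intensity of 13.6, which limits what their differences can show. No paired analysis was possible because the labels give no replicate numbers shared between groups.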
